A study of Mus musculus with 5 samples.

Results

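Marker genes of mouse embryonic stem cells were compared between wild-type and Mkl2-/- cultures; the set was Dppa2, Dppa4, Dppa5a, Utf1, Tdh, Fgf4, Fbxo15, L1td1, Lin28a and Sall4. A gene was read from array features to which the platform annotation gives exactly 1 symbol, and of several such features the brightest by its mean over the 5 arrays was taken. This gave 9 of the 10 genes, among 19938 named genes on the array; no feature carried Tdh, the threonine dehydrogenase gene, as its only symbol, and it was not analysed here. RNA came from undifferentiated C57BL/6 embryonic stem cells, 2 wild-type and 3 Mkl2-/- cultures, grown in serum with leukaemia inhibitory factor on gelatin and mouse embryonic fibroblast feeders that were removed by attachment before lysis. Mkl2 (current symbol Mrtfb) encodes a myocardin-related coactivator of serum response factor, and the series asks what its loss does to TGF-beta signalling in these cells. The sources used here do not give the kind of Mkl2 allele or the number of lines per genotype. The p-values therefore rest on the spread between the arrays of a genotype. If a genotype was represented by a single line, the effects of line and genotype cannot be told apart.

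Embryonic stem cells keep an open, undivided fate through a small circuit of transcription factors built on Pou5f1 (OCT4), Sox2 and Nanog. Many genes of the set are known targets of that circuit and are shut down when the cells differentiate, which is why they serve as markers. They do different work: chromatin proteins (Dppa2, Dppa4, Utf1, Sall4), RNA-binding proteins (Dppa5a, Lin28a, L1td1), a secreted growth factor (Fgf4) and a ubiquitin ligase adaptor (Fbxo15).

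RefSeq (GRCm38.p6) promoter entries of 4 members were used, those of Fgf4, Utf1, Lin28a and L1td1. The promoters of the other members, Fbxo15 among them, were not searched. The entries of 3 are shown: Fgf4 and Utf1, which were both higher in Mkl2-/- cells, and Lin28a, which was not. Each line gives the 250 bases before the gene's start, 5′ to 3′ on the gene's strand. Capitals mark matches, on either strand, to an octamer (ATGCAAAT, the OCT4 site), a Sox core (CATTGT), a GC box (GGGCGG), the CCAAT box or the CArG box, the serum response factor site.
Fgf4, chr7:144861136-144861385, plus strand: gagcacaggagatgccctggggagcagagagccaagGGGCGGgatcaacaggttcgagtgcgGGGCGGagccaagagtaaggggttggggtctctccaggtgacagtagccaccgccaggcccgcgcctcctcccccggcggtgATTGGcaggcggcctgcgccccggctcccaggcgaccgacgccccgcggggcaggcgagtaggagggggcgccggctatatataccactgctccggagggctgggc
Utf1, chr7:139943606-139943855, plus strand: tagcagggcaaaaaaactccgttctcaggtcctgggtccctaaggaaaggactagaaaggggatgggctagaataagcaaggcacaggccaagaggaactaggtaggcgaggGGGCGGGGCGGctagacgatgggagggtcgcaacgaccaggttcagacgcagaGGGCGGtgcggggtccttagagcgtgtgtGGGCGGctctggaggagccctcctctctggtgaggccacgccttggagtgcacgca
Lin28a, chr4:134018817-134019066, minus strand: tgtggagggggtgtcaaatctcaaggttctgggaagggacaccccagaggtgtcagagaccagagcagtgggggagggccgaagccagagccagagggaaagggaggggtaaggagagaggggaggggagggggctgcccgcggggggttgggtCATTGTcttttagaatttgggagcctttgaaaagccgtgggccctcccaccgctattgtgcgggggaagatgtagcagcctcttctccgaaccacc

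The windows of Fgf4 and Utf1, the only higher genes searched, shared GC boxes, with 2 matches in Fgf4 and 4 in Utf1. A pair of the matches in Utf1 overlaps by 1 base. GC content was 71.2% in Fgf4, 61.6% in Utf1, 61.2% in Lin28a and 57.6% in L1td1, against a median of 52.4% over all promoters. Fgf4 also held 1 CCAAT box, read on the opposite strand, 106 bases before the start. Lin28a held 1 Sox core, 96 bases before the start, and no GC box. No octamer and no CArG box was found in these 3 windows or in that of L1td1, which matched none of the motifs. Of 32851 promoter windows of the same length, 32.7% held a GC box, 33.8% a CCAAT box, 10.7% a Sox core, 1.6% an octamer and 1.47% a CArG box. The composite OCT4-SOX2 elements known for Fgf4 and Utf1 lie downstream of their coding regions, outside these windows.

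In Mkl2-/- cells 5 of the 9 measured markers rose and none fell; the other 4 did not pass the test. The risers were the 3 Dppa genes, Fgf4 and Utf1, by 1.31-fold to 1.67-fold. Over all 19938 genes 9.27% passed the same test (limma with Benjamini-Hochberg adjustment, adjusted p under 0.05), 2.99% as higher and 6.28% as lower. All 9 markers lay above the background level given below, and genes above it passed more often. In a fit of only those 13564 genes 2359 passed, 822 of them as higher, and 6 markers rose. The median difference, always Mkl2-/- minus wild type on the log2 scale, was 0.39 over the 9 markers and 0.02 over all genes. All 3 Mkl2-/- arrays lay above both wild-type arrays in 7 of the 9 markers and below both in 1, against 16.9% and 16.7% of all genes. The members were chosen with earlier results of these data known, so their count is not independent evidence of a direction.

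**Figure D1:**
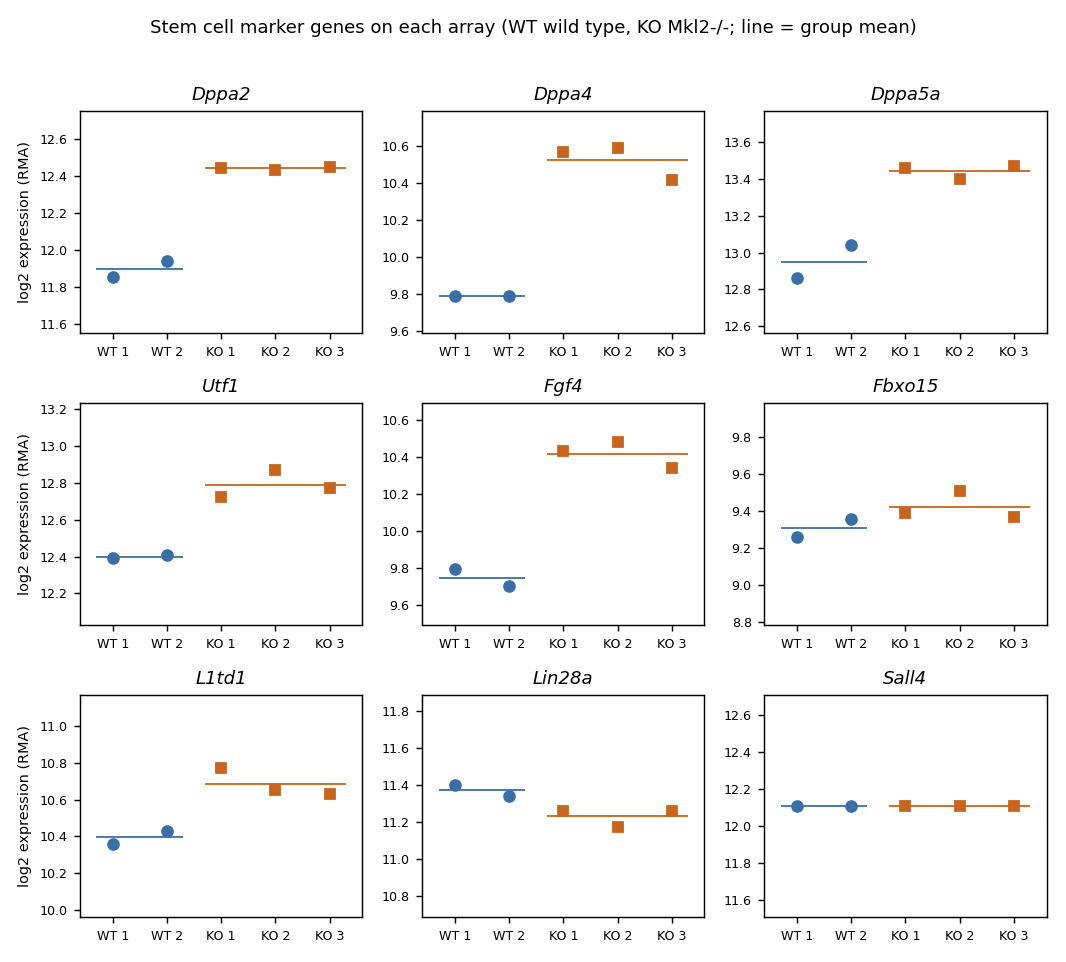
Deposited log2 expression (vertical axis) of the 9 measured markers on each of the 5 arrays, with wild type as blue circles, Mkl2-/- as orange squares and group means as lines; every panel spans 1.2 log2 units. Dppa2, Dppa4, Dppa5a, Utf1 and Fgf4, which passed the test, sit higher on the Mkl2-/- arrays; the arrays of L1td1 also do not overlap, without passing, and Sall4 reads 12.11 on all 5.

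Dppa2 and Dppa4, partner proteins with a SAP domain that bind chromatin and keep developmental genes ready for activation, rose together. Dppa2 read 11.85 and 11.94 on the wild-type arrays and 12.44, 12.43 and 12.45 on the Mkl2-/- arrays. The Mkl2-/- cultures differed among themselves by far less than the 2 genotypes did, and the groups did not overlap. Its difference was 0.55 ± 0.03 (SE, n = 2 and 3), which is 1.46-fold, with an adjusted p of 0.0082. Dppa4 read 9.79 on both wild-type arrays and 10.57, 10.59 and 10.42 on the Mkl2-/- arrays. Among the 9 measured markers it had the largest difference, 0.74 ± 0.06 or 1.67-fold (adjusted p = 0.013). The third Mkl2-/- culture was the lowest of its group and still lay well above wild type.

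Each of these genes has a second, dimmer feature, which gave the same direction. The second Dppa2 feature gave 9.14 and 9.25 for wild type against 9.92, 9.82 and 9.88 for Mkl2-/-. For the second Dppa4 feature the values were 9.40 and 9.47 against 10.33, 10.13 and 10.11. In a fit of all 35556 features their differences were 0.68 ± 0.05 (adjusted p = 0.018) and 0.76 ± 0.08 (adjusted p = 0.032). All 4 features of the pair of genes passed, and the 95% interval of the dimmer Dppa2 feature (0.54 to 0.82) overlapped that of the brighter one (0.45 to 0.64). Both features of a gene are assigned to the same Entrez gene, and the annotation used does not say whether either also reads a related copy elsewhere in the genome.

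Dppa5a (ESG1), a KH-domain RNA-binding protein abundant in pluripotent cells, also rose. Its wild-type values were 12.86 and 13.04, and its Mkl2-/- values 13.46, 13.40 and 13.47. Here the wild-type cultures differed from each other more than the Mkl2-/- cultures did, but the groups stayed apart. The difference was 0.49 ± 0.06, or 1.41-fold (adjusted p = 0.029). Utf1, a chromatin protein that binds bivalent promoters, read 12.39 and 12.41 in wild-type cells and rose to 12.72, 12.87 and 12.77. Its rise was the smallest of those that passed, 0.39 ± 0.05 or 1.31-fold (adjusted p = 0.030).

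Fgf4, the main autocrine ligand that drives ERK signalling and primes stem cells for differentiation, rose 1.59-fold. Wild-type arrays gave 9.79 and 9.70 and Mkl2-/- arrays 10.43, 10.48 and 10.34, a gap several times the spread within either group. The difference was 0.67 ± 0.06 (adjusted p = 0.013). Its main receptor in these cells, Fgfr1, fell by 0.33 on the log2 scale (± 0.02, adjusted p = 0.011), so ligand and receptor changed in opposite directions.

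The RNA-binding and ligase members showed smaller differences. L1td1, a protein derived from a LINE-1 element that works with LIN28, read 10.36 and 10.43 in wild-type cells against 10.77, 10.65 and 10.63 in Mkl2-/- cells. The groups did not overlap, but the difference of 0.29 ± 0.06 (95% interval 0.13 to 0.44) did not pass (adjusted p = 0.064). It passed with further normalization or when dim or spreadless genes were left out of the fit (adjusted p between 0.0072 and 0.040), so this call depended on the processing. Fbxo15, the substrate adaptor of an SCF ubiquitin ligase and a classic reporter gene of pluripotency, read 9.26 and 9.36 against 9.39, 9.51 and 9.37. The nearest arrays of the 2 groups almost touched, and the difference of 0.11 ± 0.06 did not pass (95% interval -0.06 to 0.28, adjusted p = 0.38).

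Lin28a, which blocks maturation of the let-7 microRNAs, was the only one of the 9 measured markers with a negative difference. Its values were 11.40 and 11.34 on wild-type arrays against 11.26, 11.17 and 11.26. The arrays did not overlap, yet the difference of -0.14 ± 0.04 (95% interval -0.25 to -0.03) did not pass the test (adjusted p = 0.14). Sall4, a zinc-finger factor that works with OCT4 and NANOG, read 12.11 on all 5 arrays. Without any spread its fitted interval (-0.03 to 0.03) rests on the variance borrowed from other genes.

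**Figure D2:**
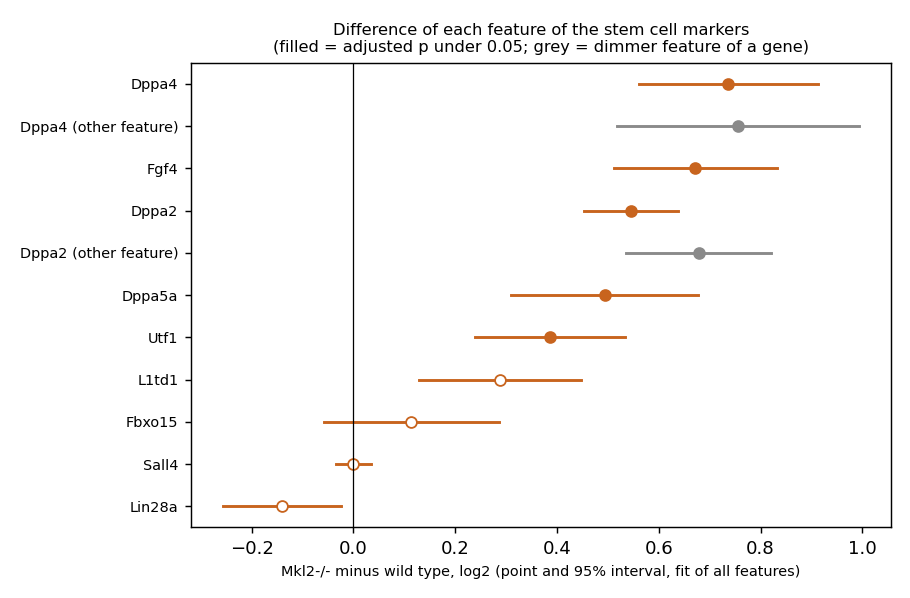
Difference Mkl2-/- minus wild type on the log2 scale with its 95% interval for each feature of the 9 markers, from the fit of all 35556 features, ordered by the main feature of each gene; filled points have an adjusted p under 0.05 and grey marks the dimmer feature of a gene. Both Dppa4 features (0.74 and 0.76) and both Dppa2 features (0.55 and 0.68) lie to the right of 0, and only Lin28a lies to the left.

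The calls rested on few arrays. Apart from Sall4, which was 0 throughout, each marker's difference kept its sign when any single array was left out. Leaving out a wild-type array leaves 1 wild-type sample, which is assumed to vary like the Mkl2-/- arrays. With wild-type replicate 1 left out, 1 marker passed (Dppa2, adjusted p = 0.038), and without Mkl2-/- replicate 3 there were 2 (Dppa4, adjusted p = 0.028, and Fgf4, adjusted p = 0.048). No marker passed without wild-type replicate 2 or without Mkl2-/- replicate 1 or 2, although 6, 6 and 7 of the 9 had an unadjusted p under 0.05 there. Each of these fits has fewer residual degrees of freedom than the fit of all arrays. Whether a lost call marks a particular culture was not tested.

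The stem cell label was checked against its markers. All 12 markers fixed for stem cell identity, Pou5f1, Sox2, Nanog and Zfp42 among them, lay above the background level of 7.30 on every array, as did all 9 measured members. That level is the 95th percentile over 1027 olfactory receptor genes, which these cells should not express. Mkl2 itself read 9.80 and 9.75 on wild-type arrays and 9.32, 9.32 and 9.09 on Mkl2-/- arrays (-0.53 ± 0.09, adjusted p = 0.048). On the Mkl2-/- arrays it thus stayed well above background, 1.45-fold below wild type. The sources used here do not say which part of the gene the allele changes, so whether this feature can check the label is not known.

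Markers of other cell types moved with genotype too. Of 31 fibroblast markers 27 were above background (Postn, Lum, Fap and Mmp3 were not), 6 fell and 2 rose. Igfbp4 (-0.99), Has2 (-0.76), Fn1 (-0.61), Pdgfrb (-0.28), Mmp2 (-0.26) and Sparc (-0.24) were lower. Crip1 (0.35) and Twist1 (0.31) were higher, and the list median was -0.075. Among the 23 that did not pass were Col3a1 (0.05), Col6a1 (0.03), Col6a2 (0.04), Col6a3 (0.02), Prrx1 (-0.02) and Loxl1 (-0.005). The summed linear signal of the 31 fibroblast markers was 30600 to 31400 in wild type and 25600 in each Mkl2-/- culture. Without Fn1 and Vim, which changed it most, it was 16700 to 16800 against 14800 to 15200. Col1a1 differed by -0.29 and Col1a2 by -0.08, neither past the test. Of 19 primitive endoderm markers, 17 of them above background (Afp and Ttr were not), 7 rose (Srgn, Cubn, Lama1 1.45, Gata6 0.935, Gata4 0.93, Pdgfra 0.75 and Lamb1 0.19) and 1 fell (Sparc -0.24). Their summed signal was 14000 to 14300 in wild type and 18200 to 20500 in Mkl2-/-. Without Srgn it was 13900 to 14200 against 14700 to 15900, so that 1 gene carried most of the rise. Without Srgn and Sparc it was 8040 to 8290 against 9830 to 10700, so the remaining markers rose in sum as well. Srgn and Cubn lay below background in wild type, at means of 6.99 and 6.44, and reached 11.93 and 9.31. Of 13 trophoblast markers, 11 of them above background (Elf5 and Psg23 were not), 4 fell (Krt18 -0.65, Krt8 -0.54, Cdx2 -0.37, Tfap2a -0.27), with a summed signal of 16100 to 16600 against 11800 to 12900. Without Krt8 and Krt18 that sum was 3920 to 3960 against 3780 to 3950. Hand1 went the other way (0.47) without passing (limma adjusted p = 0.065). With cyclic loess, with quantile normalization, among genes above background and without spreadless genes, 1 trophoblast marker rose. Of 12 neural markers Neurod1 rose (1.23) and none fell, while Stmn2 (-0.21), Fabp7 (-0.65) and Sox11 (-0.18) did not pass; 5 neural markers fell with cyclic loess, 3 with quantile normalization and 4 without spreadless genes. The part of these cell types in the members' rises was not tested, and in RNA from a whole culture fewer cells of a type and less RNA per cell cannot be told apart. The mean of the fibroblast markers was 8.57 on both wild-type arrays and 8.40 to 8.45 on the Mkl2-/- arrays. With that mean as a covariate no member passed, 2 of the 9 had an unadjusted p under 0.05, and Utf1, Fbxo15 and Lin28a changed sign (-0.013, -0.18 and 0.083). Since the covariate does not overlap between the groups, its part and that of genotype cannot be told apart.

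Other stem cell markers changed in both directions. Of 28 measured genes outside it, 5 rose, 4 fell and 19 did not pass, with a median of 0.03. The core factors Pou5f1 (0.03 ± 0.02, adjusted p = 0.40) and Sox2 (0.07 ± 0.02, adjusted p = 0.15), which are known to drive Fgf4 and Utf1, were not past the test. Dnmt3l, a cofactor of de novo DNA methylation, rose from 10.33 and 10.35 to 11.33, 11.32 and 11.19. Nanog fell from 12.18 and 12.17 to 11.15, 11.00 and 10.96, and Klf4 (-0.69) and the glucose transporter gene Slc2a3 (-0.68) fell as well. The further risers were Nr0b1 (0.49), Tet1 (0.40), Klf5 (0.28) and Cdh1 (0.22), and Tfcp2l1 (-0.67) completed the falls.

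DPPA2 and DPPA4 are known activators of genes of the 2-cell embryo through Dux. Of 25 such genes listed 12 were measured, and none of them had a mean above background, so no change could be read for the class. The smallest p-values belonged to Zfp352, Arg2, Pramel7 and Pramel6, whose differences were 0.11, 0.17, 0.05 and 0.08. In the list of 22 germ line genes, many of which DNA methylation keeps silent in somatic cells, none passed (limma; 15 above background, median -0.02). Mov10l1 (-0.39 ± 0.07, adjusted p = 0.058) and Mael (0.15 ± 0.04, adjusted p = 0.13) came nearest among those above background. Taf7l (-0.66) lay below it in Mkl2-/- and Slc25a31 differed by 0.16. The family relatives Dppa1 and Dppa3 (Stella) were both below background.

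**Figure D3:**
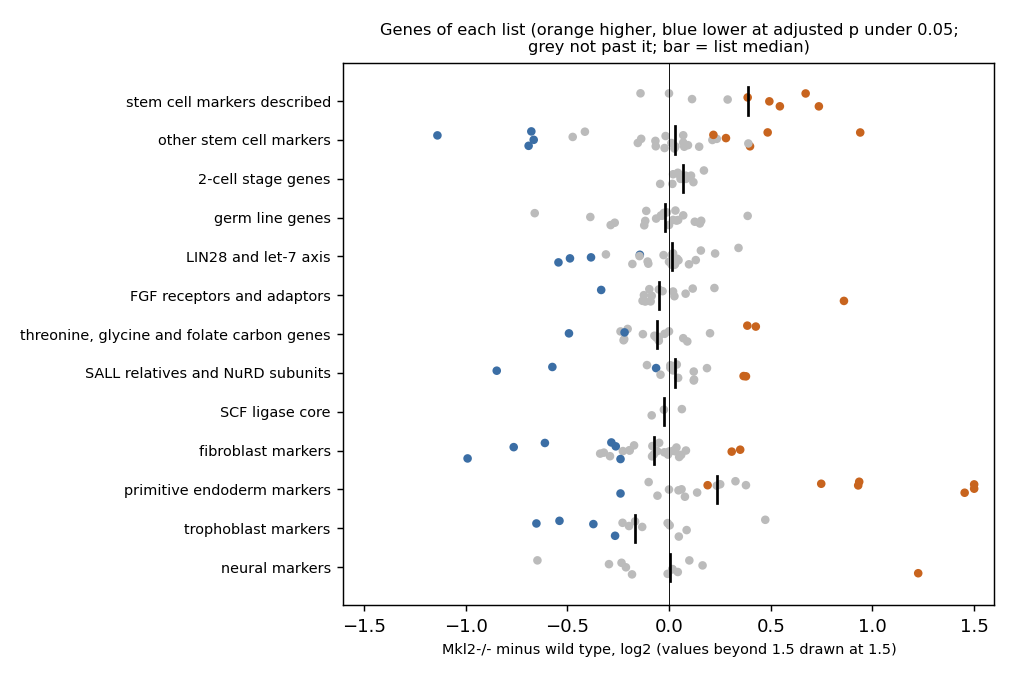
Each point is a gene, placed by its difference Mkl2-/- minus wild type (log2; values beyond 1.5 are drawn at 1.5), orange if higher and blue if lower at an adjusted p under 0.05, grey otherwise; black bars are list medians. The described markers have a median of 0.39 and the other stem cell markers, which changed both ways, one of 0.03; none of the 2-cell stage genes was above background, so their points show no lack of change.

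On the LIN28 side, 4 of 24 measured genes fell and none rose, with a median of 0.01. Hmga2, a let-7 target encoding a chromatin protein, fell from 11.11 and 11.19 to 10.56, 10.58 and 10.68 (-0.54 ± 0.05, adjusted p = 0.016). Dis3l2, the nuclease that degrades uridylated let-7 precursors, fell by 0.49, and the RNA-binding let-7 targets Igf2bp3 and Igf2bp1 by 0.38 and 0.14. The let-7 genes themselves were mostly dim: of 10 measured, counting Mir98, only Mirlet7d (0.34 ± 0.11, adjusted p = 0.20), Mirlet7e (-0.03) and Mirlet7i (0.23) were above background, and none passed. Lin28b differed by -0.11 and Trim71 by 0.13, neither past the test.

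Around Fgf4, 1 of 15 receptor and adaptor genes rose and 1 fell (median -0.05). The docking protein gene Gab1 rose 1.82-fold, from 10.83 and 10.89 to 11.74, 11.70 and 11.72 (adjusted p = 0.0054). Fgfr1 was the gene that fell; Fgfr2 (-0.13), Fgfr3 (-0.05), Fgfr4 (0.08), Frs3 (0.22) and Braf (0.12) did not pass. Although Tdh was not measured, its pathway partners were: of 18 genes of threonine, glycine and folate carbon metabolism 2 rose and 2 fell (median -0.06). Gldc and Amt, subunits of the glycine cleavage system, rose by 0.43 ± 0.03 and 0.39 ± 0.05. Mthfd2, a mitochondrial folate enzyme, and Psat1, of serine synthesis, fell by 0.49 ± 0.02 and 0.22 ± 0.02. Gcat, the enzyme directly after TDH, differed by 0.20 ± 0.04 without passing (adjusted p = 0.059).

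Among the relatives and partners of SALL4, 2 of 16 genes rose and 3 fell, with a median of 0.03. Its paralogue Sall1 rose (0.38 ± 0.06, adjusted p = 0.044) while Sall2 (0.04) and Sall3 (-0.11) did not pass. Of the NuRD repressor complex that SALL4 recruits, the histone-binding subunit gene Rbbp7 fell by 0.85, the helicase genes Chd3 and Chd4 by 0.57 and 0.06, and the scaffold gene Mbd3 rose by 0.37. Chd4 read 11.88 on both wild-type arrays and 11.82, 11.82 and 11.81 on the Mkl2-/- arrays, only 1.045-fold apart in values rounded to 2 decimals. The falls in this list were 2 rather than 3 with cyclic loess, quantile normalization, trended robust moderation or spreadless genes left out. Rbbp7 lies on the X chromosome. For FBXO15 none of the 3 measured SCF core genes passed (Rbx1 0.06, Cul1 -0.09, Skp1 -0.03).

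Of 79 genes around the markers that are not markers themselves, 4 rose and 5 fell. Over all 19938 genes 2.99% were higher and 6.28% lower. For each member the 5 expressed genes on either side in RefSeq order were followed (9 in all for Fbxo15), and the median of these neighbours lay between -0.04 and 0.09. Dppa4 and Dppa2 are adjacent on chromosome 16, which also carries Mkl2. Whether that bears on their rises was not tested. Without the member itself, their 9 other neighbours had a median of 0.03; Nectin3 on one side (0.13 ± 0.03) and Morc1 on the other (0.09 ± 0.04) did not pass, and Phldb2 fell by 0.55. On chromosome 9 the genes beside Dppa5a, Gsta4 (0.11) and Ooep (0.21), did not pass. Kndc1 (0.07) and Adam8 (0.23) beside Utf1 on chromosome 7 did not pass either. Fgf4 lies between Fgf3 (0.12) and Fgf15 on chromosome 7, and Fgf15 rose with it (0.58 ± 0.09, adjusted p = 0.046). Of the neighbours of the other members, Cyb5a beside Fbxo15 (0.38), Foxd3 near L1td1 (0.43) and Arid1a near Lin28a (0.185) rose and Zadh2 near Fbxo15 fell (-0.21). Further falls were those of Elovl5 near Dppa5a (-0.28), Inpp5a near Utf1 (-0.33) and Ccnd1 near Fgf4 (-0.32). Among the genes directly beside these members, Timm21 (0.02) beside Fbxo15, Patj (-0.08) and Kank4 (-0.02) beside L1td1, Dhdds (-0.185) and Crybg2 (0.09) beside Lin28a, and Atp9a (-0.10) and Zfp64 (0.10) beside Sall4 did not pass.

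**Figure D4:**
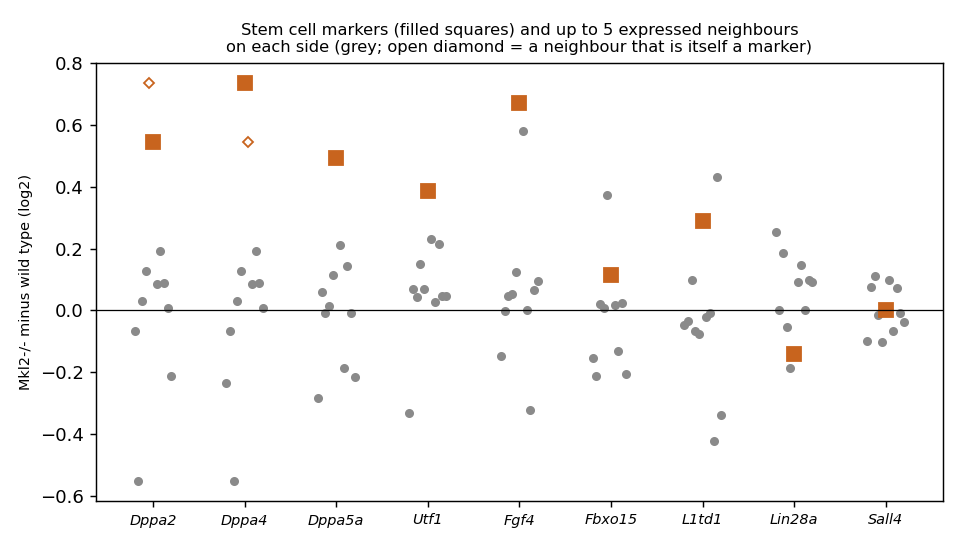
Difference Mkl2-/- minus wild type (log2, vertical axis) of each marker (orange square) and of its expressed neighbours in chromosomal order (grey; open diamonds mark Dppa4 beside Dppa2 and the reverse). Dppa2, Dppa4, Dppa5a, Utf1 and Fgf4 lie above all neighbours that are not themselves markers, with Fgf15 at 0.58 the nearest to Fgf4 at 0.67.

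Over the 5 arrays and 13564 genes above background, the profiles closest to Dppa2 after centring each gene on its mean were those of Mal2, Car4 and Klf9, at root mean square distances of 0.022, 0.022 and 0.027 log2 units. For Dppa4 they were Lef1 (0.020), Atp11b (0.033) and Etl4 (0.037), and for Dppa5a B230307C23Rik (0.033), Mal2 (0.035) and Zfp770 (0.037). The arrays form 2 groups, so genes with a difference of similar size are close by construction: Lef1 differed by 0.73 and Mal2 by 0.50.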

How the data were processed

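The submitters' processing notes name RMA and Affymetrix Expression Console 1.1 for the deposited log2 values. RMA includes a background correction, quantile normalization and a summary over probes, and understates differences of dim features. They are rounded to 2 decimals, and array medians lie between 7.94 and 7.98. Depth has no meaning here; the number of arrays limits precision. Of 35556 features, 21789 carry 1 symbol, 1621 several and 12146 none; 21698 of the first matched RefSeq by Entrez identifier, used for names, chromosomes and gene order. Groups were compared with limma 3.58.1 (R 4.3.3; lmFit, eBayes, 3 residual and 0.885 prior degrees of freedom) over all 19938 genes, with Benjamini-Hochberg adjustment and both directions counted; the standard error is the moderated one. There was no spread within either group in 776 genes. The fit was run on simulated data, where only the recovery of changes larger than those of the markers was required. That run does not show how reliable the markers' calls are. Motifs were searched with Python 3.11.15, and figures drawn with matplotlib 3.10.9.

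The members and lists were chosen with earlier results of these data known, and the motifs after the promoters were seen. Named are all members, Mkl2, the 4 genes of each list with the smallest p, the nearest expressed neighbours, and the 3 nearest profiles of each Dppa gene; others were chosen after their values were seen. List symbols were matched through RefSeq synonyms. The labels name no pairing of the cultures by replicate number. Deviations of same-numbered arrays from their group means correlated at -0.20 and 0.19 over genes. With 2 wild-type arrays the wild-type deviations mirror each other, so these values cannot show whether the cultures were paired.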

Additional observations from a re-analysis of the deposited data

How the results depend on the processing

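The 5 rises became 6 with cyclic loess, with quantile normalization, among genes above background and without spreadless genes, stayed 5 with trended robust moderation, the mean of features and all features tested, and were 4 with array weights (Utf1 adjusted p = 0.051). With the replicate block 0 members and 0 genes passed (6 members at an unadjusted p under 0.05; limma smallest adjusted p 0.16), and the labels name no pairs. With the fibroblast mean as covariate 0 members and 0 genes passed (1317 genes at an unadjusted p under 0.05), and Utf1 (-0.013), Fbxo15 (-0.18) and Lin28a (0.083) reversed. Leaving out single arrays gave 0 to 2 member rises, no member fall, and 0 to 963 genes past the threshold. Over all genes 2982 passed with cyclic loess and 3234 with quantile normalization, against 1848; the share that was higher went from 32.3% to 45.9% with quantile normalization. No scaling moved the median of all genes by over 0.1. In the 15 alternatives Dppa2 lay between 0.50 and 0.61, Dppa4 between 0.69 and 0.79, Fgf4 between 0.51 and 0.72 and Dppa5a between 0.40 and 0.71. The other stem cell markers had 0 to 8 rises and 0 to 6 falls, and the LIN28 list 0 to 2 rises and 0 to 5 falls.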

Other observations

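Sall4 was not alone in reading the same on every array. At 2 decimals 766 of the 19938 genes (3.84%) had 1 value on all 5 arrays, 346 of the 13564 above background (2.55%) and 420 of the 6374 below it (6.59%). Among the genes of the lists and the neighbours they were Sall4 (12.11), Mat2b (9.92), Cep85 (8.85), Foxa2 (8.27), LTO1 (7.83), Mmp3 (6.22) and Dppa1 (5.09). For these genes the files hold no measure of spread between cultures.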
